A study of Mus musculus with 2 samples.

Results

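Mecom, Prdm16, Meis1, Meis2, Pbx3, Hlf and Hmga2 encode 7 regulators of transcription that blood stem cells use. They were taken by name, as every probeset of an Affymetrix array that the platform's annotation pairs with 1 of these symbols alone or with its older synonym. This gave 144 probesets of 7 genes, out of 21947 genes that the annotation names. The study cultured FLK1-positive mesoderm, isolated on day 3 from embryoid bodies of the mouse embryonic stem cell line Bry-GFP, with the LSD1 inhibitor compound B at 300 nM or with the solvent DMSO. LSD1 is a histone demethylase. After 2 days in culture the cells carrying CD41, an integrin of early blood cells and platelets, were sorted from each culture and their RNA was hybridised. Each condition had 1 array, so no test between conditions was possible, and each difference below describes these 2 arrays alone.

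Blood stem cells arise from hemogenic endothelium, and the labels give both samples that name. Mecom and Prdm16 encode related zinc finger proteins that maintain blood stem cells. Meis1, Meis2 and Pbx3 encode homeodomain proteins of the TALE class, which bind DNA together with Hox proteins. Hlf encodes a leucine zipper factor that marks blood stem cells, and Hmga2 encodes a chromatin protein with AT-hooks that is abundant in fetal stem cells.

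Mecom was the 1 gene of the 7 that differed by the size used here, and it was higher in the LSD1 inhibitor array. The size rule asked for a difference of at least 1 on the log2 scale, which is 2-fold, with at least 75% of a gene's bright probesets in that direction. A probeset counted as bright when the higher of its 2 values reached 3.17, the table's median value, and a gene counted as measured with at least 4 such probesets. All 7 genes were measured, on 109 bright probesets. Of 7 genes, 1 was higher, none was lower and 6 were neither. Over all 15087 measured genes, 259 were higher, which is 1.72%, and 85 were lower, which is 0.563%. With a level-dependent trend removed the split was 208 higher and 111 lower. The median difference of the 7 genes was 0.11, against 0.06 for all measured genes, and 6 of the 7 lay within the central 90% of all genes, from -0.50 to 0.68.

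The annotation splits Mecom over 2 older names, Evi1 with 23 probesets and Mds1 with 2, and RefSeq lists 2 promoters for it. The long form of the protein starts at the upstream promoter, in the part once named Mds1, and carries a PR domain. The short form, once named Evi1, starts at the downstream promoter and lacks that domain. The promoters are shown because the Mecom probesets are listed under both names. Each covers 250 bases before the start site and 50 after it on the minus strand of GRCm38.p6, read 5′ to 3′. The upstream one lies at chr3:30509710-30510009, and the downstream one at chr3:30013155-30013454, with 497 kb between the start sites. The promoter of Prdm16, the paralog, lies at chr4:154636824-154637123 and is shown beside them. In the first and the third sequence capitals mark a run of 24 bases that both hold. In the second, capitals mark the letters TGACAG of Meis and Pknox factors and CGGAAG of ETS factors, both read on the opposite strand.

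Mecom, upstream promoter: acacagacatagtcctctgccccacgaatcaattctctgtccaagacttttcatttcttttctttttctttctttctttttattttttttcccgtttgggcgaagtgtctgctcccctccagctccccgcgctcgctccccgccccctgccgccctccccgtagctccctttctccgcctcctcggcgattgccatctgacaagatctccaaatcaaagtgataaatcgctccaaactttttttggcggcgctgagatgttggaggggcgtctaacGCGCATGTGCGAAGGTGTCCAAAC

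Mecom, downstream promoter: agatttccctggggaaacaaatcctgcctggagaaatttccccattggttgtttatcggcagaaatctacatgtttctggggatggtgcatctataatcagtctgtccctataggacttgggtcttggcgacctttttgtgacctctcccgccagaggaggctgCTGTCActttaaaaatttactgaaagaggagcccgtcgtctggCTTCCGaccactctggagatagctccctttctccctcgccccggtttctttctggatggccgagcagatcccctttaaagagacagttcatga

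Prdm16 promoter: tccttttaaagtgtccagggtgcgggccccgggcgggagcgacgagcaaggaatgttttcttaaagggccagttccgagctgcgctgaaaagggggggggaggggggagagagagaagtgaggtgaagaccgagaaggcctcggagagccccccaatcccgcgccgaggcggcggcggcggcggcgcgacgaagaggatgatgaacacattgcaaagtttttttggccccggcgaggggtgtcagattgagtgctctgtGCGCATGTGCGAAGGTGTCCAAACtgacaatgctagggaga

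The shared run ends at the last base of the upstream Mecom window and at base 283 of the Prdm16 window, so it lies after the start site in both genes. Of 32851 promoters of this length in the RefSeq table, 2 held it, those of Mecom and Prdm16. Among the 21 pairs that can be made of the 7 promoters of these genes, the next longest shared run had 15 bases. A search on both strands covered AATCAC for Gfi1 and Gfi1b, AGATAA for GATA factors, CGGAAG for ETS factors, TGTGGT for Runx factors and TGACAG for Meis and Pknox factors. No 2 of these motifs overlapped in the hits. CGGAAG was found in the downstream Mecom promoter, 43 bases before the start site, and in the Meis1 promoter, and 16.9% of all promoters hold it. TGACAG was found in the downstream Mecom promoter, 86 bases before the start site, and in 19.2% of all promoters. TGTGGT was found in the Meis1 promoter and in 16.8% of all promoters. AATCAC and AGATAA were in none of the 7 windows, and in 10.4% and 11.2% of all promoters. These matches describe letters and show no binding. Pbx3 has no entry in the promoter table.

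Mecom had a level of 5.12 in the LSD1 inhibitor array and 3.76 in the DMSO array, each the median of 21 bright probesets on the log2 scale. The median of the probeset differences was 1.24, a 2.36-fold higher signal, with an SD of 0.96 over probesets. That SD, here and below, is the spread of 1 gene's probesets within the 2 arrays and is no replicate error. Of the 21 bright probesets, 18 were higher and 3 lower, and 13 were higher by at least 1 whereas none was lower by that much. The probeset with the largest gain had 4.83 in the inhibitor array and 1.72 in the DMSO array. The brightest probeset had 7.52 in the inhibitor array and 6.28 in the DMSO array. The gain was therefore seen both on a probeset that was dim with DMSO and on the brightest one. Among the 25 probesets of the gene, dim ones included, 20 reached the table's median in the inhibitor array and 17 in the DMSO array.

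The 20 bright probesets listed as Evi1 had a median difference of 1.25, and 18 of them were higher. The single bright probeset listed as Mds1 had 2.47 in the inhibitor array and 3.35 in the DMSO array. The other Mds1 probeset, at 1.87 in the inhibitor array, was below the table's median in both arrays and differed by 0.37. The gain was thus seen on probesets under the name of the short form, whose exons the long form largely shares. The Mds1 probesets are too few and too dim to compare the forms. With the Mds1 probesets left out Mecom was at 1.25, and with probesets bright in both arrays alone it was also at 1.25, over 16 probesets. Mecom passed the size rule in 16 of 17 alternative settings. In the other one, where values below the table's median were raised to it and dim probesets were also kept, it was at 0.97. With such values raised and the filter on dim probesets left in place it was at 1.17.

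**Figure D1:**
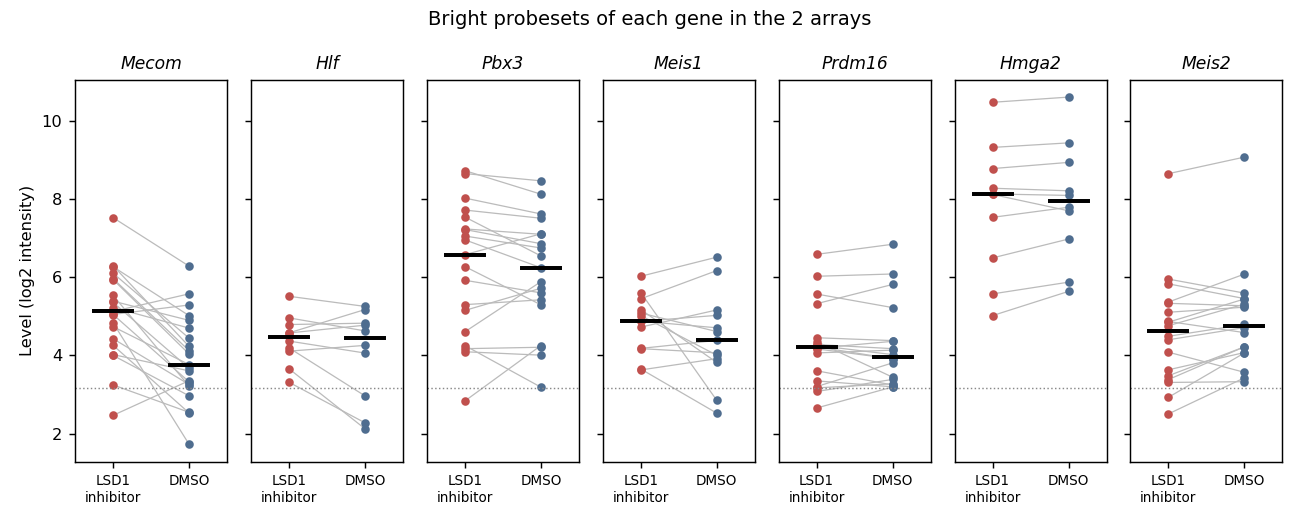
Levels on the log2 intensity scale of every bright probeset of the 7 genes, with the LSD1 inhibitor array on the left of each panel and the DMSO array on the right, lines joining the 2 values of a probeset, black bars at the medians and a dotted line at the table's median of 3.17. The Mecom medians are 5.12 with the inhibitor and 3.76 with DMSO, and the Prdm16 medians are 4.20 with the inhibitor and 3.97 with DMSO. Heights of different panels are not comparable, since probes differ in brightness.

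Among all measured genes, 143 had a larger difference than Mecom, which is 0.948% of them. Of 2073 genes whose mean level over the 2 arrays lay within 0.25 of that of Mecom, Mecom included, 35 were higher past the size rule, which is 1.69%, and 13 were lower. The 3 genes nearest to Mecom in the plane of the 2 levels were Ccdc125, Ccdc51 and Casp8, the gene of an initiator caspase, at distances of 0.026, 0.066 and 0.085. Likeness over 2 arrays is a description of 2 numbers. Ccdc125 had levels of 5.11 with the inhibitor and 3.74 with DMSO and passed the size rule at 1.83. Casp8 had levels of 5.06 with the inhibitor and 3.82 with DMSO and passed it at 1.60. Ccdc51, at 1.16 with 4 of 6 probesets higher, did not pass.

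Prdm16, the paralog of Mecom and a factor of blood stem cells and of brown fat, did not pass the size rule. Its level was 4.20 in the inhibitor array and 3.97 in the DMSO array, and the median of its 18 probeset differences was 0.01 (SD 0.38). Of the 18 bright probesets, 9 were higher and 9 lower, and none moved by 1 or more in either direction. The brightest had 6.58 in the inhibitor array and 6.84 in the DMSO array. Prdm16 was thus near the middle of all genes, with 57.8% of measured genes above it, while Mecom was near the top. Over 16 alternative settings Prdm16 ran from -0.16 to 0.23, with the opposite sign in 6.

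Meis1, the Hox cofactor needed for definitive blood and for megakaryocytes, was uneven among its probesets. Its level was 4.87 in the inhibitor array and 4.38 in the DMSO array, and the median of 13 probeset differences was 0.11 (SD 0.97), far below the size rule. Of the 13 bright probesets, 7 were higher and 6 lower. The bright probesets fell into 4 that were higher by at least 1 and 9 that were not. Those 4 had values of 3.65 to 5.60 in the inhibitor array and 2.52 to 4.003 in the DMSO array, where 2 of them were below the table's median. The other 9 had values of 3.63 to 6.02 in the inhibitor array and 3.92 to 6.51 in the DMSO array, with differences from -0.72 to 0.47. A further Meis1 probeset differed by 1.10 but counted as dim. Its value in the inhibitor array was 3.1713, just under the cut of 3.1714. Grouping probesets by their own difference favours low DMSO values in the first 4, so this describes the spread within the gene and no relation to level. With probesets bright in both arrays alone, Meis1 was at -0.15 over 11 probesets.

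Meis2, a paralog of Meis1 known from heart and limb development, had the lowest difference of the 7 genes. Its level was 4.62 in the inhibitor array and 4.75 in the DMSO array, and the median of 18 probeset differences was -0.37 (SD 0.49). Of its bright probesets 13 were lower and 5 higher and 1 was lower by at least 1. The brightest had 8.64 in the inhibitor array and 9.07 in the DMSO array. Of all measured genes 8.33% had a lower difference than Meis2. It was at or below 0 in all 16 alternative settings, from -0.43 to 0.00, and passed the size rule in none.

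Pbx3, a PBX protein that pairs with Meis and Hox proteins and is best known in blood from leukaemia, was slightly above 0 and did not pass the size rule. Its level was 6.57 in the inhibitor array and 6.24 in the DMSO array, and the median of 19 probeset differences was 0.21 (SD 0.69). Of the 19 bright probesets, 13 were higher and 6 lower, with 1 higher and 2 lower by at least 1. Pbx3 stayed between 0.12 and 0.33 over 16 alternative settings, and 29.2% of measured genes had a larger difference.

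Hlf had the second largest difference of the 7 genes and did not pass the size rule. Its level was 4.47 in the inhibitor array and 4.44 in the DMSO array over 10 bright probesets, while the median of their differences was 0.28 (SD 0.69). Of these 10 probesets, 6 were higher and 4 lower. Many Hlf probesets were dim, as 10 of 21 reached the table's median with the inhibitor and 7 with DMSO. The 3 probesets that were higher by at least 1 were those below the table's median with DMSO, at 2.12, 2.27 and 2.96. A bright probeset below that median with DMSO must be higher with the inhibitor, so the filter fixed their direction. With probesets bright in both arrays alone, Hlf was at -0.03 over 7 probesets. Among bright probesets, the sign of the Hlf difference thus depended on whether these 3 were used. With all 21 probesets, dim ones included, Hlf was at 0.21.

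Hmga2, whose mRNA the microRNA let-7 represses, was bright in both arrays on all 10 of its probesets. Its level was 8.12 in the inhibitor array and 7.94 in the DMSO array, while the median of the probeset differences was -0.15 (SD 0.29), so the 2 summaries had opposite signs. Of the 10 probesets, 7 were lower and 3 higher, and the brightest had 10.5 in the inhibitor array and 10.6 in the DMSO array. No Hmga2 probeset moved by as much as 1, and its probesets had the smallest spread among the 7 genes. Hmga2 also had the highest level of the 7, and its spread was not set against that of genes of like level. Of 669 genes whose mean level lay within 0.25 of that of Hmga2, 1 was higher and 2 were lower past the size rule.

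**Figure D2:**
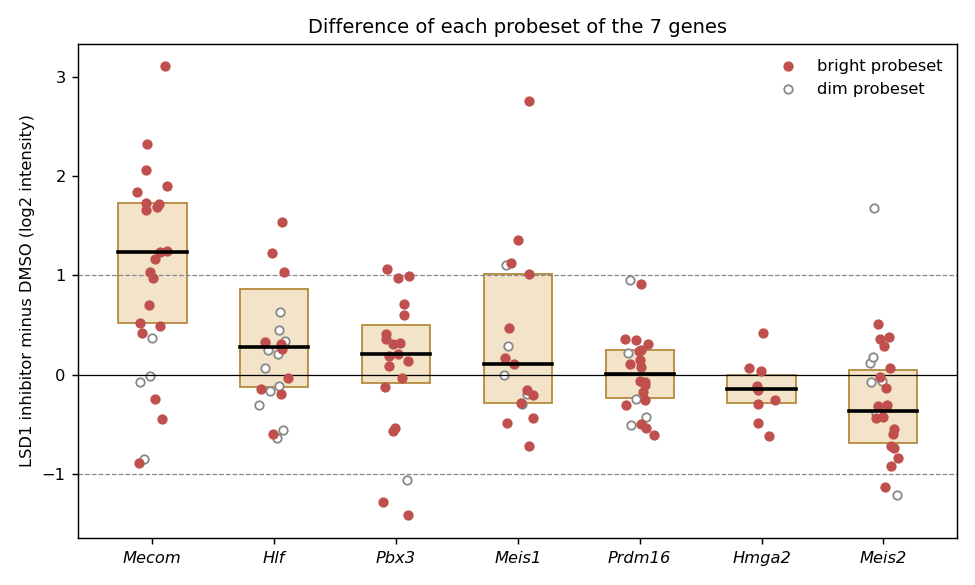
Difference of each probeset, LSD1 inhibitor minus DMSO on the log2 scale, for the 7 genes in falling order of their median, with filled points for bright and open points for dim probesets, boxes from the lower to the upper quartile of the bright ones, black bars at their medians and dashed lines at the size rule. The Mecom median of 1.24 is the one beyond a dashed line, and 4 bright Meis1 probesets lie above 1 while the other 9 do not.

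Ordered by difference, the genes ran Mecom, Hlf, Pbx3, Meis1, Prdm16, Hmga2 and Meis2. All 6 neighbouring pairs in this order had overlapping quartile ranges of their probeset differences, so neighbours were not set apart by this spread. Mecom, whose lower quartile was 0.53, overlapped with Hlf, with an upper quartile of 0.86, and with Meis1, with an upper quartile of 1.01. It did not overlap with Pbx3, Prdm16, Hmga2 or Meis2. This depended on the filter. With probesets bright in both arrays alone, the lower quartile of Mecom was 0.52, and Pbx3, with an upper quartile of 0.55, overlapped. Hlf and Meis1, with upper quartiles of 0.28 and 0.32, then did not. With either choice the quartile ranges of Mecom and Prdm16, the 2 zinc finger paralogs, were apart. How many of all measured genes had quartile ranges apart from that of Mecom was not counted. The upper quartile of the differences of all measured genes was 0.25, below the lower quartile of Mecom. Being apart from Mecom was thus not shown to be particular to these genes. Probesets of 1 gene share its RNA and are no replicates, so this ordering carries no test.

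**Figure D3:**
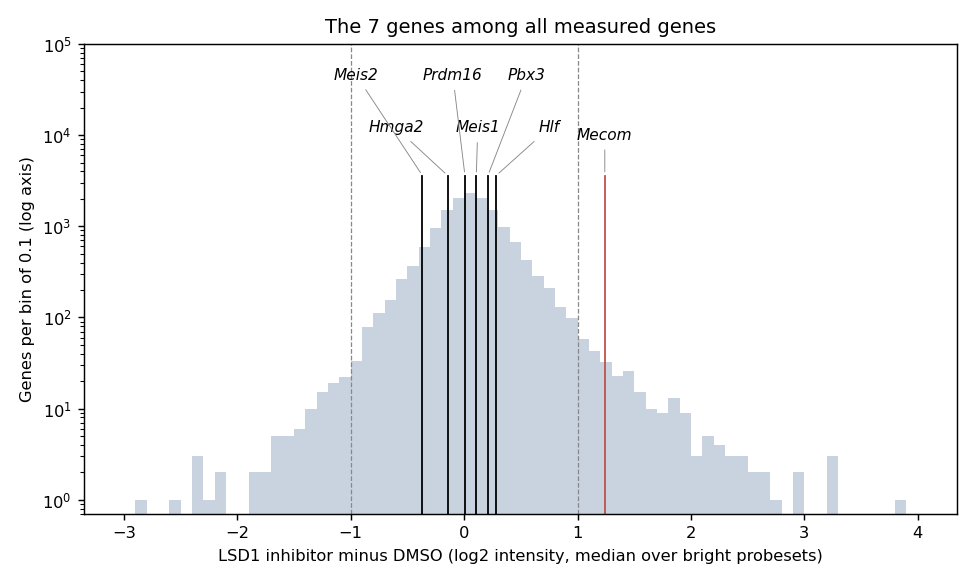
Number of measured genes per difference, in bins of 0.1 on the log2 scale and on a log count axis, with the 7 genes as vertical lines and the size rule as dashed lines. Mecom, in red at 1.24, lies in the right tail, and the other 6 lie between -0.37 and 0.28.

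Genes related to the 7 by family or function were also read, from 9 lists of 91 genes in all. Of these, 82 were measured, and 8 of the 82 were higher past the size rule and 2 lower. Of all 15087 measured genes, 259 were higher, which is 1.72%, and 85 lower, which is 0.563%. The lists were chosen with earlier results of these data known, so these counts are no test of an excess. Their median difference was 0.07. The families themselves showed no gene past the rule. In the Meis, Pbx and Pknox family none of 5 measured members passed, and the differences ran from -0.13 for Pknox2 to 0.10 for Pbx4, with Pbx2 at 0.04. None of 6 measured Hox partners passed, with Hoxb4 at 0.61, Hoxa10 at -0.59 and Hoxb3 at 0.27. None of 10 measured PRDM genes besides Mecom and Prdm16 passed, and Prdm1, Prdm14 and Prdm10 were at -0.58, -0.45 and -0.25. When its dim probesets were kept, Prdm1 was at 0.13. Of the 12 cofactor genes of Mecom and Prdm16, which include the corepressor gene Ctbp2 at 0.34, Smad3 at 0.42 and Skil at 0.30, none passed. Among the relatives of Hlf none of 3 passed. Nfil3, a repressor that binds the same sites as Hlf, was at 0.77 (SD 0.53, 3 of 4 probesets higher), Tef at -0.12 and Dbp at -0.05.

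Around Hmga2, 1 of 7 measured genes passed the size rule, upward. Lin28a, an RNA-binding protein that blocks the making of let-7, had a level of 7.79 in the inhibitor array and 6.69 in the DMSO array and differed by 1.12 in 6 of 6 probesets. The gap between Lin28a and Hmga2 was not tested. Among genes reported as targets of Meis1, Mecom or Hmga2, 1 of 8 measured genes was higher and 1 lower, with a median of 0.03. Gata2, a stem cell factor that Mecom is known to activate in mice, had levels of 7.98 with the inhibitor and 6.68 with DMSO and differed by 1.41 in 7 of 7 probesets. Pf4, a platelet chemokine gene bound by Meis1 in megakaryocytes, had levels of 2.70 with the inhibitor and 5.31 with DMSO and differed by -2.29 in 5 of 5 probesets, at -0.77 when values below the table's median were raised to it and at -0.64 when dim probesets were kept as well. This list pools the targets of different factors, and 4 of its 8 measured genes were above 0 and 4 below. The targets of each factor were not read apart.

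Of 24 other measured regulators of blood stem cells, 4 were higher and 1 was lower, and the median was 0.09. The higher ones were Gfi1 at 2.43, Gfi1b at 1.56, Gata2 and Erg. Erg, an ETS factor of stem cells and endothelium, was at 1.26. With even-ranked probesets alone Erg was at 0.88, and as the difference of its levels at 0.85. The lower one was Mllt3, a chromatin reader that upholds human blood stem cells. Mllt3 had levels of 4.15 with the inhibitor and 5.43 with DMSO and differed by -1.40 (SD 1.13), with 14 of 16 probesets lower. It was at -0.69 with odd-ranked probesets alone and at -0.50 when values below the table's median were raised to it and dim probesets were kept. Regulators on this list were thus found on both sides.

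Of 12 measured surface markers of blood stem cells, 3 passed the size rule, all upward, and the list median was 0.10. Of the 12, 6 were above 0 and 6 below. Among the latter were Kit at -0.66 and Cd34 at -0.53. Procr, the endothelial protein C receptor, had levels of 5.83 with the inhibitor and 4.14 with DMSO and differed by 1.55 in 9 of 9 probesets, at 0.98 with even-ranked probesets alone. Fgd5, an exchange factor used to mark stem cells, had levels of 5.94 with the inhibitor and 4.47 with DMSO and differed by 1.32, with 22 of 24 probesets higher. Esam, an adhesion molecule, had levels of 6.81 with the inhibitor and 4.57 with DMSO and differed by 1.97 in 6 of 6 probesets. Procr, Fgd5 and Esam are also genes of endothelium.

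**Figure D4:**
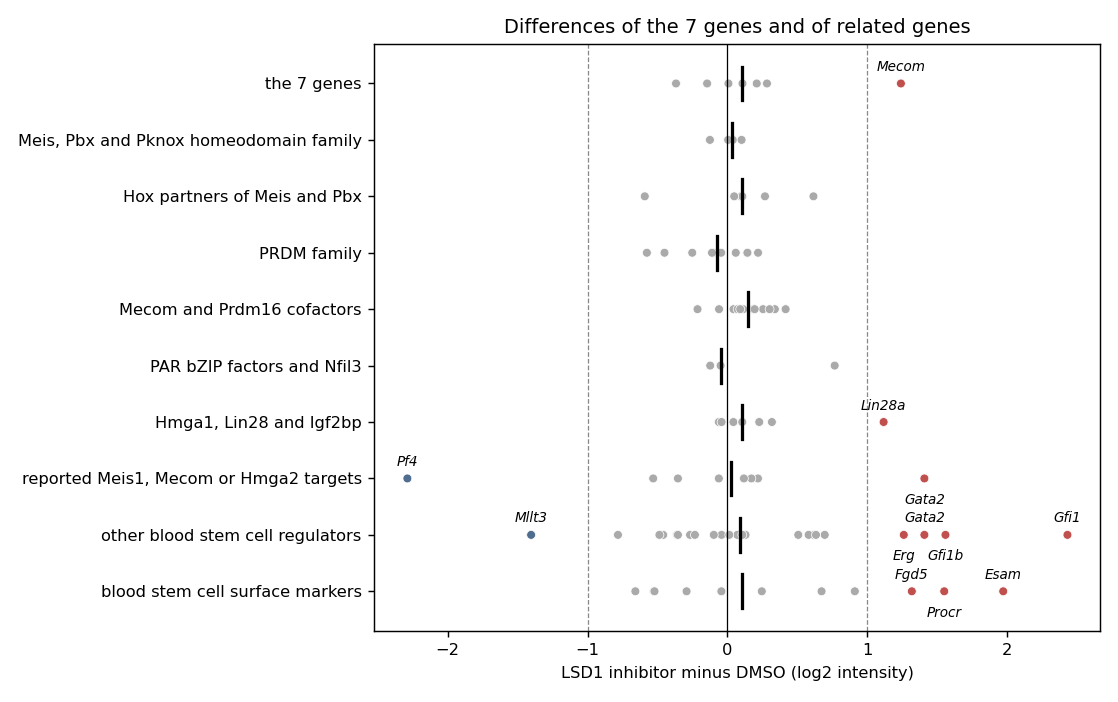
Difference of each measured gene, LSD1 inhibitor minus DMSO on the log2 scale, in the 7 genes and in 9 related lists, with red for higher and blue for lower genes past the size rule, grey for the others, a black bar at each list's median and dashed lines at the size rule. Named genes are those past the rule, among them Mecom at 1.24, Gfi1 at 2.43 and Mllt3 at -1.40, while the Meis, Pbx and Pknox family lies between -0.13 and 0.10.

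The 8 lists of cell type markers differed in direction between the arrays. Of all measured genes, 59.0% were above 0, and 1.72% were higher and 0.563% lower past the size rule. Endothelium also expresses Mecom, and of 11 measured endothelial markers 11 were above 0 and 6 passed the size rule, with a median level of 7.36 in the inhibitor array and 5.69 in the DMSO array. Summed on the linear scale, their levels came to 3126 in the inhibitor array and 757 in the DMSO array. Such sums, here and below, follow the brightest genes of a list, and probes differ in brightness between genes. They are thus no measure of the share of a cell type. Of 9 measured erythroid markers 7 were lower, with sums of 3746 in the inhibitor array and 11454 in the DMSO array. None of 10 markers of CD41-positive blood passed, and 8 of them were below 0, with sums of 1226 in the inhibitor array and 1523 in the DMSO array. Of 4 measured megakaryocyte markers 4 were below 0 and 1, Pf4, was lower, with sums of 80.7 in the inhibitor array and 149 in the DMSO array. Of 9 measured markers of mesenchyme and smooth muscle 9 were below 0 and 2, the matrix genes Dcn at -1.40 and Postn at -1.32, were lower, with sums of 1828 in the inhibitor array and 2721 in the DMSO array. Meis2, which had the lowest difference of the 7 genes, is expressed in mesenchyme and is also known from heart development. Of 7 measured cardiac markers 7 were above 0, from 0.09 to 1.99 with a median of 0.28. Only 1, the transcription factor gene Hand2 at 1.99, passed the size rule. The cardiac sums were 357 in the inhibitor array and 232 in the DMSO array. None of 6 neural markers passed, with sums of 375 in the inhibitor array and 235 in the DMSO array, and of 5 pluripotency markers 1, Dppa4 at 1.10, was higher, with sums of 153 in the inhibitor array and 109.5 in the DMSO array. In RNA from a sorted population, fewer cells of a type and less RNA per cell cannot be told apart, and the part of these markers in the differences of the 7 genes was not tested.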

How the data were processed

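RNA of 2 sorted cell samples was measured on 2 Affymetrix arrays, 1 per group, and the sample titles gave the groups. The deposited table gives 1 log2 intensity per probeset and array. The log base was read from the values, which run from 0.157 to 13.5, and how the authors summarised and normalized them is not given in the sources used here. At equal rank, values of the 2 arrays lay within 0.085 of each other. The table ends after 1048575 probesets, where spreadsheet programs also end, so later probesets, if any, were not analysed here.

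Of these probesets, 270105 have 1 gene symbol in the platform annotation. Older symbols were updated through RefSeq synonyms (GRCm38.p6), for 4167 of 22133 symbols, and 61 had no match. No probeset with several symbols names any of the 7 genes. Values were used as deposited. Gene levels and differences are medians over bright probesets, computed with pandas 2.3.3 and numpy 2.4.6 and tested on simulated data. Named are all 7 genes, in each related list the genes past the size rule or otherwise up to 3 with the largest difference, and the 3 genes nearest to Mecom, without clones and predicted genes. The markers Kit, Cd34, Dcn, Postn, Hand2 and Dppa4 were named after their values were seen. The genes, lists and rules were chosen with earlier results of these data known. Alternatives changed scaling, dim-signal filter, summary, probesets and thresholds one at a time, except that raising values below the table's median to it was planned together with keeping dim probesets, with statsmodels 0.14.6 for the lowess trend (span 0.2). Those with probesets bright in both arrays, without Mds1 probesets, and with values raised to the table's median but the filter kept were added after the data were seen.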

Additional observations from a re-analysis of the deposited data

How the results depend on the processing

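Mecom kept its direction in all 17 alternative settings, from 0.97 to 1.66, and lost the size rule in 1 of them, at 0.97, where values below the table's median were raised to it and dim probesets were kept. With the filter kept it was at 1.17. At 0.97, and with a 3-fold threshold, 0 of the 7 genes passed. Prdm16, Meis1, Meis2, Pbx3, Hlf and Hmga2 passed in no setting. The sign turned in 6 of 16 settings for Prdm16, in 3 of 16 for Meis1, in 2 of 15 for Hlf and in 1 of 16 for Hmga2, at 0.18 as the difference of its levels. Hlf was not measured in 1 setting. Over all genes, 259 were higher and 85 lower of 15087 measured. With values raised to the table's median and dim probesets kept, the counts were 152 and 32 of 18027. With them raised and the filter kept, the counts were 193 and 51 of 15087. Each gene's brighter probesets alone gave 169 and 51 of 11427, and probesets bright in both arrays 163 and 43 of 13485. At least 1 bright probeset gave 641 and 439 of 20424, and at least 8 gave 155 and 44 of 10350. At 1.5-fold the counts were 882 and 402 of 15087, and at 3-fold 70 and 18 of 15087. The counts thus rest on different numbers of measured genes, and shares were not compared. As differences of the levels, 345 were higher and 142 lower. With a level-dependent trend removed, 208 were higher and 111 lower. The other minimum numbers of bright probesets and the other thresholds change the counts by their own construction, and for the rest the cause was not tested. No paired analysis was possible because each group had 1 array. The data give no detection call, so signal over background was not assessed for any gene. Dim signal is a limit for Hlf, where 10 of 21 probesets reached the table's median with the inhibitor and 7 with DMSO.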

Other observations

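The uneven probesets of Meis1 were set beside those of other genes. Of its bright probesets, 30.8% were higher by at least 1 although the gene did not pass the size rule. Among 10151 measured genes with at least 8 bright probesets that did not pass the rule, 346 had such a share or more, which is 3.41%. The measure and its cut were taken from Meis1 itself, and the genes were not matched for level. The percentage is thus a description and no test. The SD over Meis1 probesets was exceeded in 11.3% of all measured genes, that over Mecom probesets in 11.9%, and that over Hmga2 probesets in 91.0%. These percentages were not matched for level either. No position within the gene is given for these probesets, so whether the 4 higher Meis1 probesets lie in 1 transcript form was not tested.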
